A study of Mus musculus with 8 samples.

Results

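A set of 10 mast cell genes was followed in forepaw (palm) skin of mice after an intradermal injection of PACAP. They were the chymase genes Cma1, Mcpt1, Mcpt2 and Mcpt4, the carboxypeptidase gene Cpa3, the tryptase genes Tpsb2 and Tpsab1, the IgE receptor genes Fcer1a and Ms4a2, and the receptor gene Mrgprb2. The members were all non-control probes that carried these gene names in the scanner files, which gave 11 probes for 10 genes, out of 39429 probes and 29608 gene names on the array. Tpsb2 had 2 probes and every other member had 1. WT mice (C57BL/6) and PAC1R KO mice (Adcyap1r1 -/-, lacking the PAC1 receptor for PACAP) of 9 to 10 weeks received 5 µL of PACAP at 1e-07 mol/L in saline with 0.1% BSA, or 5 µL of that vehicle alone, and skin was taken after 30 or 60 min. This gave 8 RNA samples in 4 comparisons of PACAP with vehicle (WT at 30 min, WT at 60 min, KO at 30 min and KO at 60 min), each hybridised on 2 two-colour arrays with the dyes swapped. The study used 6 mice of each genotype, and the sources used here do not say how many mice each RNA sample holds. The 2 arrays of a comparison carry the same 2 RNA samples and are technical repeats, so each comparison is 1 pair of RNA samples and its spread between animals is not measured. The dyes of each array were taken from the labels. With every ratio turned to PACAP over vehicle, the 2 arrays of a comparison correlated at -0.44 to -0.08 over the 30351 probes fitted, so the probes as a whole did not repeat between dye orientations, and both arrays' values are given for each member. The measured member probes had the same direction on both arrays in 23 of 32 cases (71.9%, against 51.5% over all probes).

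Mast cells are tissue-resident immune cells that store histamine, proteases and the proteoglycan serglycin in granules and release them within minutes of a stimulus. Those of connective tissue such as skin carry chymase, tryptase and carboxypeptidase together, whereas those of mucosal surfaces are marked by other chymases. IgE bound to its high-affinity receptor is the classical trigger, and basic peptides, among which PACAP is a known mast cell secretagogue, act on skin mast cells without IgE, with Mrgprb2 as a receptor for many such compounds in mice. Transcripts were measured here, not degranulation.

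Of the 10 genes, 7 had a probe that was well above background in 1 or both channels of each array: Cma1, Mcpt4, Cpa3, Tpsb2, Tpsab1, Fcer1a and Mrgprb2. The 8 probes of these genes entered the fits described here, and 7 of them, those of all these genes except Tpsab1, were so on both arrays of all 8 RNA samples. The probes of Mcpt1 and Mcpt2, the chymases of mucosal mast cells, and of Ms4a2, the beta chain of the IgE receptor, were not. They passed the scanner's background test in the red channel on 7, 6 and 7 of the 8 arrays and in the green channel on 0 arrays. In bulk skin, fewer mast cells and less of an RNA per mast cell cannot be told apart.

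The probes are 60-base oligonucleotides. Each of 3 is shown because its reading bears on a member in a particular way: the Cma1 probe gave the largest ratio among the members, the second Tpsb2 probe disagreed with the brighter one, and the Tpsab1 probe reads a gene that RefSeq lists for the C57BL/6J assembly GRCm38.p6 as a transcribed pseudogene. Positions are those of the files, in build mm9. The Cma1 probe is aligned there over 1060 bases, more than its own length, so it crosses a splice junction. The longest run of bases that any pair of the 11 member probes shared was 10.
Cma1 probe, chr14:56561491-56562550, minus strand: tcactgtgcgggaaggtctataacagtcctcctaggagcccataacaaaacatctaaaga
Tpsb2 probe, chr17:25504493-25504552, plus strand: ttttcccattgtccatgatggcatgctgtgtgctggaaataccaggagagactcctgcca
Tpsab1 probe, chr17:25480640-25480699, minus strand: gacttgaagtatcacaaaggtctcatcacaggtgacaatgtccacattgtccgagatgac

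The 250 bases before the annotated start were given by RefSeq (GRCm38.p6) for 7 of the 10 genes, namely Cma1, Mcpt1, Mcpt4, Cpa3, Fcer1a, Ms4a2 and Mrgprb2. GATA factors are known regulators of mast cell genes, and the letters AGATAA, the variant AGATAG, the variant TGATAA and the variant TGATAG were searched on both strands. All 7 promoters held a match, against 26.5% of the 32851 promoters of the same length. Mcpt1 and Mcpt4 shared a run of 53 bases, although the probe of Mcpt4 was well above background in all 8 RNA samples and that of Mcpt1 was not. The E-box CATGTG, a site type of the mast cell factor Mitf, was found in 1 of the 7 (Fcer1a), against 12.3% of all, and the full cAMP response element TGACGTCA in 0 of the 7, against 1.55% of all. A match of letters is a description of the sequence and not a measured binding site. Promoters of a chymase, the carboxypeptidase and the secretagogue receptor (Mcpt4, Cpa3 and Mrgprb2) are shown as examples of the measured members, and that of Mcpt1 for the run it shares with Mcpt4, with the GATA matches in capitals.
Mcpt4 promoter, chr14:56062311-56062560, minus strand: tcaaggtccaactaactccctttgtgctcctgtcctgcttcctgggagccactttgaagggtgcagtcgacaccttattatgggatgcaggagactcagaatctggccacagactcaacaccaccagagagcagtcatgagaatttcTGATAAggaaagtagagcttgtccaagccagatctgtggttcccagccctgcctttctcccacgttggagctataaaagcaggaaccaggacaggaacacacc
Mcpt1 promoter, chr14:56017714-56017963, plus strand: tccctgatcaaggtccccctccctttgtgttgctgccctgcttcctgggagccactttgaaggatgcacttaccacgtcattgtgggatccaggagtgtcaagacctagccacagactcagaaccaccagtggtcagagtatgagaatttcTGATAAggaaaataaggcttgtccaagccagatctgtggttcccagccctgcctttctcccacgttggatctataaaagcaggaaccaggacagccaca
Cpa3 promoter, chr3:20242182-20242431, minus strand: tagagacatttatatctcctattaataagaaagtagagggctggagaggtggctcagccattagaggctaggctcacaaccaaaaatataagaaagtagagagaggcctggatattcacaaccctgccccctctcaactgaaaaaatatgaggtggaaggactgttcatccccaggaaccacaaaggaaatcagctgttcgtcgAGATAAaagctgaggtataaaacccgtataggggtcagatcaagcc
Mrgprb2 promoter, chr7:48558087-48558336, minus strand: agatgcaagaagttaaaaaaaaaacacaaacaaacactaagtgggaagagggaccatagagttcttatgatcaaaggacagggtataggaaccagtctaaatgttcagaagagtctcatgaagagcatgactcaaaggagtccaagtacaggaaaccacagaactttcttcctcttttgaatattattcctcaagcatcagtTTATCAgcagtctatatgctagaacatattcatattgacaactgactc

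The first question was whether PACAP changed the level of mast cell transcripts within an hour. A probe was called when PACAP over vehicle reached 2.0-fold on the mean of the dye swap, or went down to 0.5-fold, and when both arrays pointed the same way with the scanner's own p below 0.01. By this rule 0 of the 10 mast cell genes were called in any of the 4 comparisons. Over all probes the rule called 0.35% in WT at 30 min, 0.692% in WT at 60 min, then 0.708% in KO at 30 min and 0.292% in KO at 60 min, so with 11 probes a count of 0 is close to that background. Across the 4 comparisons limma gave 0 of the 8 measured member probes an adjusted p below 0.05, as it did for 0% of the 30351 probes tested (2.23% at an unadjusted p below 0.05, of which 1 was a member probe).

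Cma1 encodes mouse mast cell protease 5, a chymase of connective tissue mast cells. On the 2 arrays its log2 ratio of PACAP over vehicle was 0.07 and 0.01 in WT at 30 min, -0.12 and -0.20 in WT at 60 min, then 0.73 and 0.64 in KO at 30 min, and -0.25 and -0.20 in KO at 60 min. The KO comparison at 30 min was the highest of the 4, at 1.61-fold with a scanner p of 0.000645 and 0.00275 on the 2 arrays. Its level, as log2 normalized intensity, was 8.40 with vehicle and 8.45 with PACAP in WT at 30 min, 8.77 and 8.67 in WT at 60 min, then 8.40 and 9.01 in KO at 30 min, and 9.04 and 8.84 in KO at 60 min. The vehicle samples at 30 min were thus the lowest in both genotypes, and PACAP and vehicle samples overlapped.

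Mcpt4, the chymase of connective tissue mast cells that is held to be the main functional counterpart of human chymase, had log2 ratios of 0.40 and 0.25 in WT at 30 min, 0.01 and -0.18 in WT at 60 min, then 0.28 and -0.09 in KO at 30 min, and 0.14 and -0.11 in KO at 60 min. The 2 arrays agreed in direction only in WT at 30 min, where the mean was 1.25-fold. The carboxypeptidase gene Cpa3, whose enzyme trims peptides cut by chymase, behaved alike at 30 min in both genotypes, with 1.29-fold in WT (log2 ratios 0.30 and 0.44) and 1.23-fold in KO (0.18 and 0.41). At 60 min its arrays disagreed in direction in both genotypes, at -0.15 and 0.10 in WT and -0.14 and 0.07 in KO.

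Tpsb2 encodes mouse mast cell protease 6, the tetrameric tryptase stored with heparin. Its brighter probe was above 0 on all 8 arrays, with log2 ratios of 0.55 and 0.23 in WT at 30 min, 0.37 and 0.06 in WT at 60 min, then 0.60 and 0.27 in KO at 30 min, and 0.61 and 0.24 in KO at 60 min. A ratio above 0 on all 8 arrays was seen in 0.507% of the 30351 probes. Over the 4 comparisons the mean was 0.37 on the log2 scale (SE 0.09, limma adjusted p = 1, unadjusted p = 0.0051), and this was the member probe with an unadjusted p below 0.05. The second Tpsb2 probe, which lies 5′ of the brighter one in the same gene, did not repeat this at 60 min. Its log2 ratios were 0.19 and 0.14 in WT at 30 min, 0.13 and -0.18 in WT at 60 min, then 0.67 and 0.41 in KO at 30 min, and -0.05 and -0.18 in KO at 60 min, and its mean over the 4 comparisons was 0.14 (SE 0.13, limma adjusted p = 1). The probes of this gene therefore disagreed in direction in KO at 60 min, where the brighter probe gave 1.34-fold and the second 0.922-fold. In the fit of levels after PACAP against vehicle over the 8 samples, the brighter probe was higher by 0.38 (SE 0.05, limma adjusted p = 1, unadjusted p = 0.0004), and 0 of the 8 member probes passed, as did 0% of the 26354 probes (1.75% unadjusted).

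Tpsab1 encodes mouse mast cell protease 7, a tryptase that C57BL/6 mice are known not to make because of a splice-site defect. Its probe was dim, with log2 levels from 6.25 to 6.59, and passed the background test in 12 of 16 channels. Its mean log2 ratio was 0.43 in WT at 30 min (0.67 and 0.19 on the 2 arrays; 0.13 with normexp background correction and loess) and between -0.07 and -0.05 in the other 3 comparisons.

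Fcer1a, the IgE-binding alpha chain, had log2 ratios of -0.52 and 0.37 in WT at 30 min, -0.73 and 0.00 in WT at 60 min, then 0.44 and 0.89 in KO at 30 min, and -0.45 and -0.09 in KO at 60 min. The mean in KO at 30 min was 1.59-fold (log2 0.67, and 0.40 with normexp and loess), and it was the comparison in which both arrays were above 0. Mrgprb2, the receptor for basic secretagogues, followed the same order. It was at -0.12 and -0.12 in WT at 30 min, -0.36 and -0.30 in WT at 60 min, then 0.40 and 0.73 in KO at 30 min (1.48-fold), and -0.16 and -0.27 in KO at 60 min. For this receptor the KO sample at 30 min was the high value, and the other 3 comparisons were below 0 on both arrays.

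**Figure D1:**
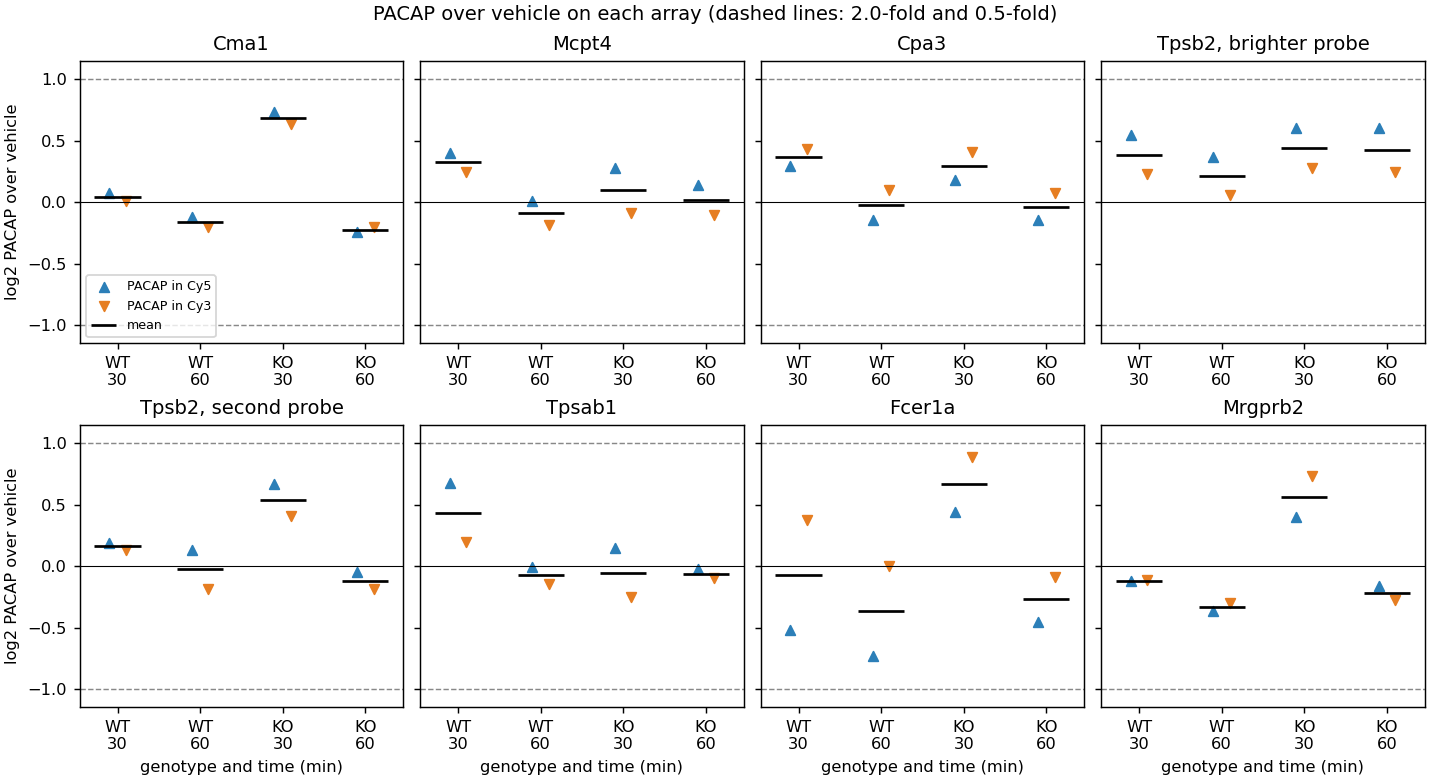
Log2 ratio of PACAP over vehicle (vertical axis) for the 8 measured probes of mast cell genes in the 4 comparisons (horizontal axis, genotype and time), with 1 triangle for each array of a dye swap and a bar at their mean. All means lie inside the dashed lines at 2.0-fold and 0.5-fold, the bars at 30 min lie above those at 60 min of the same genotype in every panel, and Cma1, Fcer1a and Mrgprb2 peak in KO at 30 min.

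As a group, the 7 measured genes (each by its brightest probe) stood at a median of 0.32 (log2 ratio) in WT at 30 min, with 5 of 7 above 0 (42.2% of all probes were), and at 0.44 in KO at 30 min, with 6 of 7 above 0 (48.2% of all). At 60 min the median was -0.09 in WT, with 1 of 7 above 0 (46.9% of all), and -0.06 in KO, with 2 of 7 above 0 (51.2% of all). The medians over all 30351 probes were -0.05, -0.01, -0.01 and 0.00 for WT at 30 and 60 min and KO at 30 and 60 min. The members' medians were above these at 30 min and below them at 60 min in both genotypes. The WT median at 30 min was 0.13 with normexp and loess and 0.021 over all 10 genes whatever their signal, and the KO median was 0.40 and 0.26.

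All 8 measured member probes had a lower ratio at 60 min than at 30 min in the fit over both genotypes, by -0.09 to -0.61 on the log2 scale, as did 42.1% of all probes. None of the 8 passed the test, with limma adjusted p = 1 for each and 0 at an unadjusted p below 0.05, and limma called 0% of all probes (1.59% unadjusted). The largest of these differences were -0.61 for Fcer1a (SE 0.30), -0.56 for Cma1 (SE 0.28), -0.50 for Mrgprb2 (SE 0.29) and -0.42 for the second Tpsb2 probe (SE 0.23). Without the KO comparison at 30 min the difference was -0.24 for Fcer1a, -0.23 for Cma1, -0.16 for Mrgprb2 and -0.23 for the second Tpsb2 probe, and below 0 for all 8 probes, from -0.07 to -0.50. Without the WT comparison at 30 min it was -0.98 for Fcer1a, -0.88 for Cma1, -0.84 for Mrgprb2 and -0.61 for the second Tpsb2 probe (limma adjusted p = 0.19 for each) and -0.01 for Tpsab1 (-0.26 with it). With normexp and loess it was -0.38 for Fcer1a and -0.06 for Tpsab1. Without the WT comparison at 60 min it was below 0 for 7 of 8, the brighter Tpsb2 probe being at 0.01.

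The effect of PACAP was then compared between KO and WT. None of the member probes passed the test, with limma adjusted p between 0.84 and 0.97, and limma called 0% of all probes (3.2% at an unadjusted p below 0.05, with 0 member probes). The differences, KO minus WT, ran from -0.24 for Tpsab1 (SE 0.24) to 0.42 for Fcer1a (SE 0.34) and 0.40 for Mrgprb2 (SE 0.30) on the log2 scale. Without the KO comparison at 30 min the value was -0.16 for Cma1 (0.29 with it), -0.05 for Fcer1a and 0.0085 for Mrgprb2, whereas Tpsab1 stayed at -0.24. Without the WT comparison at 30 min Tpsab1 was at 0.018. Without the KO comparison at 60 min the value was 0.89 for Fcer1a, 0.79 for Mrgprb2 and 0.74 for Cma1 (limma adjusted p = 0.30 for each), and with normexp and loess it was 0.17 for Fcer1a, 0.30 for Mrgprb2 and -0.04 for Tpsab1.

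The next question was how the level of each gene stood in the 2 genotypes. Cpa3 had log2 levels of 9.97 with vehicle and 10.35 with PACAP in WT at 30 min, 10.35 and 10.34 in WT at 60 min, then 10.44 and 10.72 in KO at 30 min, and 10.75 and 10.72 in KO at 60 min. All 4 KO samples lay above all 4 WT samples. Mrgprb2 was at 7.44 and 7.39 in WT at 30 min, 7.75 and 7.55 in WT at 60 min, then 7.88 and 8.33 in KO at 30 min, and 8.0 and 7.89 in KO at 60 min, again with no overlap between genotypes. The share of all probes that separate the genotypes in this way is not given here. By a weaker rule, KO higher in all 4 pairs matched by time and treatment, it was 20.6%. Fcer1a was at 6.84 and 6.83, 7.07 and 6.92, 7.06 and 7.45, and 7.42 and 7.20 in the same order, and its KO vehicle sample at 30 min lay just below the WT vehicle sample at 60 min.

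The brighter Tpsb2 probe was at 11.01 and 11.43 in WT at 30 min, 10.95 and 11.15 in WT at 60 min, then 11.20 and 11.63 in KO at 30 min, and 11.05 and 11.49 in KO at 60 min. Mcpt4 was at 12.39 and 12.72, 12.74 and 12.63, 12.62 and 12.72, and 12.86 and 12.87 in the same order. In both, WT and KO samples overlapped, and the samples separated more by PACAP for Tpsb2 than by genotype. Levels of different probes cannot be set against each other, since each probe has its own brightness.

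In limma's fit over the 8 samples, with each hybridised pair as a block, KO exceeded WT by 0.41 for Cpa3 (SE 0.10, adjusted p = 0.072), 0.49 for Mrgprb2 (SE 0.15, adjusted p = 0.12), 0.37 for Fcer1a (SE 0.13, adjusted p = 0.14) and 0.21 for the brighter Tpsb2 probe (SE 0.07, adjusted p = 0.12). Tpsab1 was lower in KO, at -0.22 (SE 0.05, adjusted p = 0.067). By this fit 0 of the 8 member probes passed, against 3.04% of the 26354 probes tested, and 5 of the 8 had an unadjusted p below 0.05, against 26.1% of all. Some passed under other settings that also called more of all probes. Tpsab1 passed on Feature Extraction signals (-0.87, adjusted p = 0.015, with 9.55% of all probes called) and with no filter on dim probes (adjusted p = 0.032, 5.84% called). Tpsab1 and Cpa3 passed without the block (adjusted p = 0.036 for each, 9.87% called), and Mrgprb2 passed without the pair of KO at 30 min (0.29, adjusted p = 0.048, 10.5% called). On Feature Extraction signals the difference was 0.63 for Fcer1a and 0.75 for Mrgprb2, which did not pass. With the 4 pair means as the data, which leaves 1 residual degree of freedom before limma's moderation, 0% of all probes passed, the members' adjusted p lay between 0.40 and 0.67, and 3 of 8 had an unadjusted p below 0.05, against 12.5% of all. Of the 8 member probes, 5 were higher in KO in all 4 pairs matched by time and treatment (Cpa3, Fcer1a, Mcpt4, Mrgprb2 and the brighter Tpsb2 probe), as were 20.6% of all probes, and Tpsab1 was lower in all 4, as were 18.5%. The WT arrays were taken to share 1 slide and the KO arrays the other, an assignment made here by genotype. A fit with the slide as a block, or within 1 slide, is thus one with genotype as a term, or within 1 genotype. In any of these level differences the slide and the genotype cannot be told apart.

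**Figure D2:**
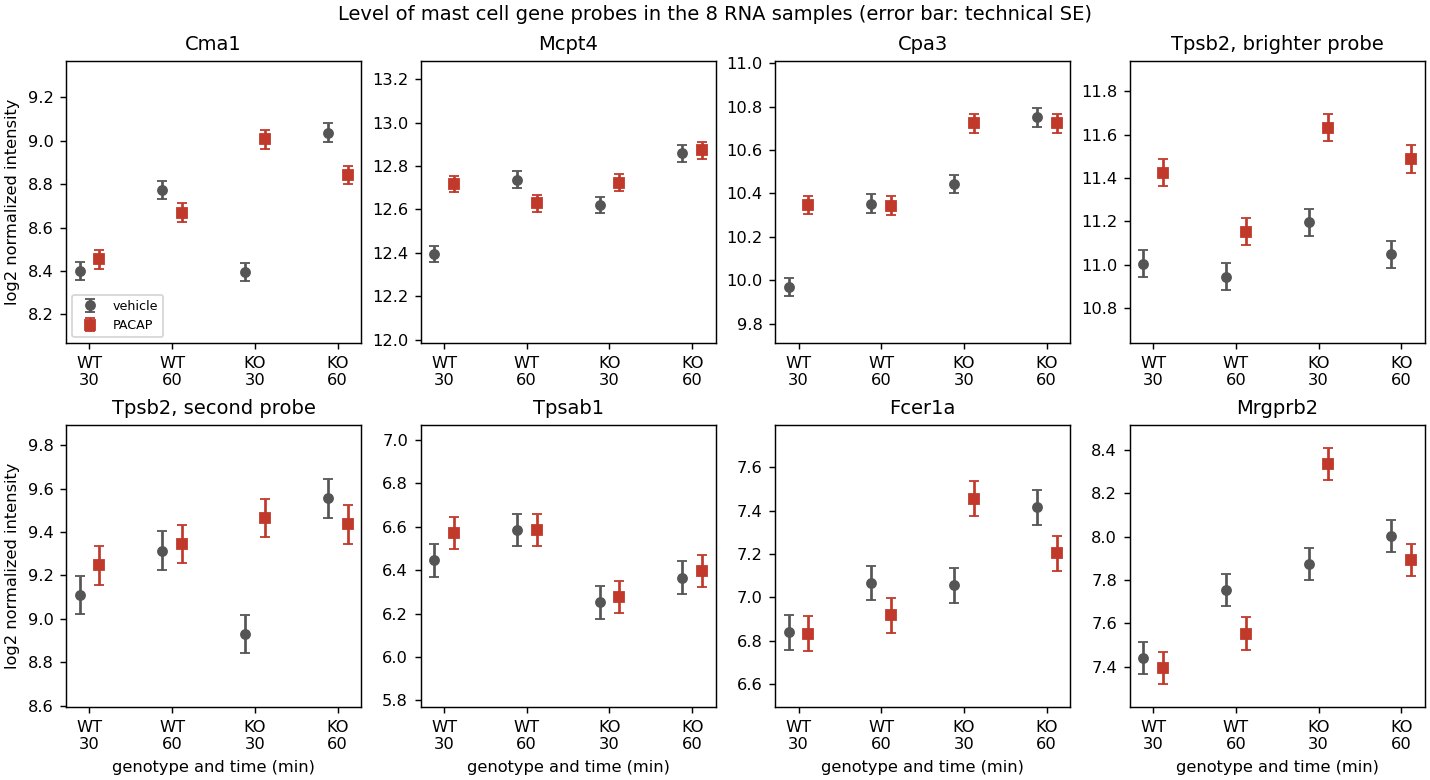
Log2 normalized intensity (vertical axis) of the 8 measured probes in the 8 RNA samples, by genotype and time (horizontal axis), for vehicle (grey circles) and PACAP (red squares). Error bars are the technical SE of a sample's mean over its 2 arrays after removal of the dye effect, and each panel spans the same number of log2 units. The KO samples lie above the WT samples for Cpa3 and Mrgprb2 and below them for Tpsab1. The share of all probes separated in this way is not given here.

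Time after the injection was compared in the same samples. With vehicle alone, the level was higher at 60 min than at 30 min in both genotypes for 7 of the 8 member probes, as it was for 36% of all probes, and the brighter Tpsb2 probe was the exception, at 11.01 and 10.95 in WT and 11.20 and 11.05 in KO. Cma1 went from 8.40 to 8.77 in WT and from 8.40 to 9.04 in KO vehicle skin, with 1 vehicle sample per genotype and time. In limma's fit of the 4 vehicle samples with the slide as a block, the difference of 60 min from 30 min was 0.51 for Cma1 (SE 0.10, adjusted p = 0.12), 0 of the 8 member probes passed, as did 0% of all, and 5 of 8 had an unadjusted p below 0.05, against 26% of all. In limma's fit over all 8 samples the difference of 60 min from 30 min was 0.27 for Cma1 (SE 0.16, adjusted p = 0.31), and 0 of the 8 member probes passed, against 10.3% of all probes (0 of 8 and 30.5% at an unadjusted p below 0.05). Without the pair of KO at 30 min Cma1 (0.29, adjusted p = 0.038) and Mrgprb2 (0.24, adjusted p = 0.033) passed, 2 of 8 member probes against 40.6% of all probes. Within the WT slide Cma1 was at 0.29 (adjusted p = 0.068) and Mrgprb2 at 0.24 (adjusted p = 0.091), and within the KO slide they were at 0.24 and -0.16. With the pair means 0% of all probes passed, the adjusted p was 0.25 for Cma1, and 1 of 8 member probes (Cma1) had an unadjusted p below 0.05, against 18.7% of all.

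For the 6 genes that were well above background throughout, Pearson r between pairs of genes over the 8 samples ran from 0.24 (Cma1 with Tpsb2) to 0.95 (Fcer1a with Mrgprb2), with a median of 0.73 over 15 pairs. It was above 0.5 in 11 of the 15, and the other 4 were pairs of Tpsb2 with Cma1, Mcpt4, Fcer1a and Mrgprb2. The samples of a pair share their arrays and, as assigned here, those of a genotype their slide, and r is given here as a description. The mean centred level of the 6 genes was lowest in the WT vehicle sample at 30 min (-0.32) and highest in the KO PACAP sample at 30 min (0.32).

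Among 15548 other gene names, the 10 whose level followed this mean most closely over the 8 samples were Coro1a (r = 0.97), XR_141891 (0.97), Bpifb1 (0.97), Pilra (0.97), Tyrobp (0.97), Zfp609 (0.96), Tm6sf1 (0.96), Ctsc (0.96), Srgn (0.96) and C230057M02Rik (0.96). Coro1a encodes an actin-binding protein of leukocytes, Tyrobp an adaptor of myeloid and natural killer cell receptors, Ctsc the peptidase that activates granule proteases, and Srgn the granule proteoglycan serglycin. These genes were picked as the highest of all candidates, and Zfp609 and XR_141891 ranged over 0.14 and 0.21 log2 units across the 8 samples.

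Other genes of mast cells were read by lists. Over all probes, the rule for calls picked 0.292% to 0.708% in a comparison. For granule amines and proteoglycan, 0 of 6 measured genes were called in any comparison, and in KO at 30 min their median log2 ratio was 0.15 with 3 of 6 above 0. There Slc18a2, the vesicular monoamine transporter, was at -0.35, Ndst2 at -0.20, Cd63 at -0.03 and Tph1 at 0.32. Hdc, which makes histamine, had mean log2 ratios of 0.52 in WT at 30 min, -0.04 in WT at 60 min, then 0.82 in KO at 30 min and 0.38 in KO at 60 min, with a mean of 0.42 over the 4 (SE 0.15, limma adjusted p = 1). Srgn was at 0.13, -0.18, 0.89 and 0.07 in the same order, and its level was 10.79 to 11.42 in the 4 WT and 11.15 to 12.01 in the 4 KO samples (KO over WT 0.67, SE 0.19, limma adjusted p = 0.10).

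The median over 14 measured surface receptors and adaptors was 0.16 in KO at 30 min, with 8 of 14 above 0. The fold rule called 1 of the 14, in KO at 30 min, where it called 0.708% of all probes. This was Il1rl1, the interleukin receptor ST2 that mast cells share with basophils, some T cells and innate lymphoid cells, at 7.32-fold (6.61 and 8.11 on the 2 arrays). This is the value of 1 of its 3 probes. The second, well above background in 16 of 16 channels, was at 0.857-fold there (0.935 and 0.786), and the third was too dim to enter the fits. By the called probe its level was 6.86 and 6.85 with vehicle and PACAP in WT at 30 min, 6.82 and 6.77 in WT at 60 min, then 7.50 and 9.93 in KO at 30 min, and 8.34 and 9.06 in KO at 60 min. By this probe the level in KO exceeded that in WT by 1.88 on the log2 scale (SE 0.49, limma adjusted p = 0.084). Kit, the receptor for stem cell factor, had levels that lay the other way, with 9.77 to 10.44 in WT and 9.45 to 9.92 in KO samples (-0.43, SE 0.14, limma adjusted p = 0.13), and its log2 ratio in KO at 30 min was -0.45. Fcer1g, the signalling chain that the IgE receptor shares with other Fc receptors, was at 0.32, -0.25, 0.53 and 0.25 in the 4 comparisons.

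Among the other mast cell and basophil proteases 0 of 7 on the array were called (median of 0.21 in KO at 30 min, with 4 of 5 measured genes above 0), and Mcpt8, the defining basophil protease, was too dim to enter the fits, with levels of 5.81 to 5.87. Ctsg, a granule protease of mast cells and neutrophils, was at 0.64 in KO at 30 min and between -0.34 and -0.14 in the other 3 comparisons. Of 5 genes of lipid mediator synthesis 0 were called (median of 0.15 in KO at 30 min, with 3 of 5 above 0), and Hpgds, the prostaglandin D2 synthase of mast cells, had mean log2 ratios of -0.05, 0.11, 0.53 and 0.48. Its probe was dim, passed the background test on 4 arrays with PACAP and 4 with vehicle, and did not enter the level fits. Its log2 levels with vehicle and PACAP, by normexp and loess, were 6.29 and 6.36 in KO at 30 min and 6.17 and 6.25 in KO at 60 min. The factors Gata1, Gata2 and Mitf gave 0 calls, and were at 0.18, -0.36 and -0.29 in KO at 30 min.

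**Figure D3:**
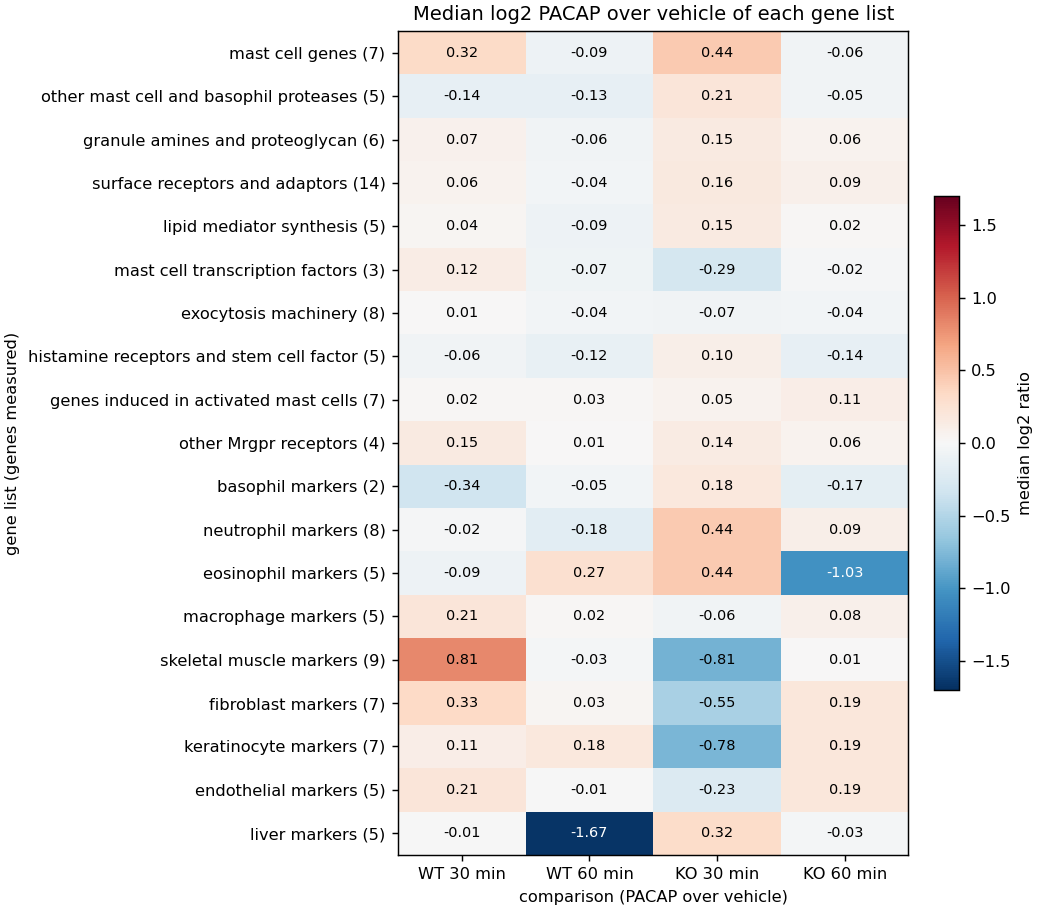
Median log2 ratio of PACAP over vehicle (colour and printed value) for each gene list (rows, with the number of genes measured) in the 4 comparisons (columns). Mast cell genes, neutrophil markers and eosinophil markers have medians of 0.44 in KO at 30 min, where skeletal muscle, keratinocyte and fibroblast markers have medians of -0.81, -0.78 and -0.55. These are Feature Extraction ratios. By normexp and loess, mean levels with vehicle and PACAP there were 8.20 and 8.57 for neutrophil markers and 6.57 and 6.73 for eosinophil markers.

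Markers of the other cells in the skin also had ratios away from 0 in these comparisons. In KO at 30 min, where the fold rule called 0.708% of all probes, the members' median was 0.44. There the median log2 ratio was 0.44 over 8 neutrophil markers, with 7 above 0 and 1 called (Retnlg, 2.91-fold). It was 0.44 over 5 eosinophil markers, with 4 above 0, and -0.06 over 5 macrophage markers, with 2 above 0. In that comparison it was -0.81 over 9 skeletal muscle markers, with 3 called lower (Acta1, Actn3 and Myh4), -0.78 over 7 keratinocyte markers, with 2 called lower (Krt1 and Krt10), and -0.55 over 7 fibroblast markers, with 6 below 0. By normexp and loess, mean log2 levels with vehicle and PACAP there were 8.20 and 8.57 over 7 neutrophil markers. They were 6.57 and 6.73 over 5 eosinophil markers, and 9.12 and 9.45 over the 7 measured members. In WT at 30 min, where the members' median was 0.32, muscle markers were at 0.81, with 9 of 9 above 0 and Myh4 called at 2.75-fold, fibroblast markers at 0.33 and neutrophil markers at -0.02. The fold rule called 0.35% of all probes there. The part of these markers in the mast cell ratios was not tested. At 60 min other markers passed the fold rule, which called 0.692% of all probes in WT and 0.292% in KO. By their brightest probe 4 of 6 liver genes were lower with PACAP than with vehicle in WT. They were Alb, Ttr, Serpina1a and Fgb, at 0.151-fold for Ttr to 0.318-fold for Alb. Apoa2 was lower by its dimmer probe (0.245-fold, against 0.816-fold for the brighter). The mean log2 level of the liver markers was 8.28 in that vehicle sample and 7.20 to 7.49 in all other samples. In KO the eosinophil ribonuclease genes Ear1 (0.161-fold) and Ear2 (0.236-fold) were lower with PACAP. The mean of the eosinophil markers was 7.37 in that vehicle sample and 6.50 to 6.73 in all others. The vehicle sample was thus the one that stood apart in both cases. The members' medians in these comparisons were -0.09 and -0.06.

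Among the granulocyte markers Epx, the eosinophil peroxidase, and the neutrophil granule genes Ltf and Ngp were not well above background in any RNA sample on both arrays, whereas the neutrophil surface gene Ly6g was so on all 8 arrays, with log2 levels from 9.56 to 10.81. Mean log2 levels of the 7 neutrophil markers above background ran from 8.17 to 8.35 in WT and from 8.20 to 8.57 in KO samples, and those of the 5 macrophage markers from 9.68 to 9.91 in WT and from 9.91 to 10.13 in KO samples. Adgre1, which encodes a macrophage surface antigen, was the marker that passed limma's test of genotype, at 0.66 (SE 0.07, adjusted p = 0.035), though not with the pair means (adjusted p = 0.40).

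**Figure D4:**
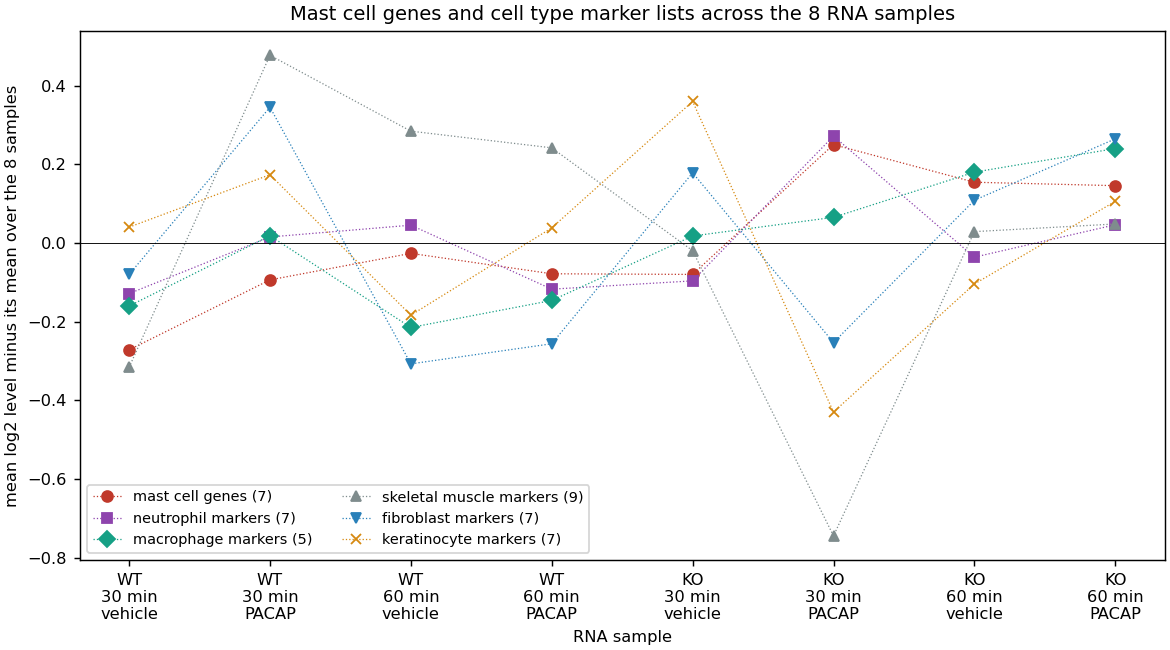
Mean log2 level of the 7 measured mast cell genes and of 5 marker lists in the 8 RNA samples (horizontal axis), each minus its own mean over the samples (vertical axis, log2 units). Dotted lines only join the points of a list, and in the KO PACAP sample at 30 min mast cell genes and neutrophil markers are at their highest while muscle and keratinocyte markers are at their lowest.

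The deleted gene was read in every sample by 1 probe, which was well above background in 16 of 16 channels. Adcyap1r1 was at 8.28 and 8.26 with vehicle and PACAP in WT at 30 min, 8.67 and 8.76 in WT at 60 min, then 7.98 and 7.91 in KO at 30 min, and 8.56 and 8.42 in KO at 60 min. Each KO sample was lower than its WT counterpart, by less than the change between 30 and 60 min. Which part of the gene was deleted is not given in the sources used here, so this probe does not check the genotype labels. Across arrays, 198 to 342 spots were outliers, 0 were saturated, and the scanner's background test was passed by 78.6% to 94.5% of probe spots in the red and 54.0% to 65.3% in the green channel.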

How the data were processed

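Total RNA of mouse forepaw skin was hybridised by the authors on Agilent mouse whole-genome two-colour arrays, and spots were read with Agilent Feature Extraction (version 11.0.1.1 in the submitters' processing notes, 12.0.3.1 in the file headers; positions in mm9). The deposited scanner files hold background-corrected, dye-normalized intensities per channel, their log10 ratio of red over green with the scanner's error-model p-value, and flags. The deposited value table holds the same log10 ratios on processed signals, 43020 probe spots matching within 5e-10, with the direction red over green.

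Control and outlier spots were left out, spots of a probe were averaged, and each ratio was turned to PACAP over vehicle, converted to log2 and averaged over the dye swap. Effects across comparisons were fitted with limma 3.58.1 (R 4.3.3) on the 4 comparison means, over the 30351 probes that passed the scanner's background test in 1 or both channels of each array. Levels came from normexp (offset 50), loess and Aquantile, averaged per RNA sample, over the 26354 probes well above background on both arrays of at least 1 sample, with the hybridised pair as a random block whose correlation was estimated on 5000 probes. Adjusted p-values are Benjamini-Hochberg over all probes tested. The fits were tested on simulated data, where the block correlation came out too low, so the level fits call too readily and the fit on pair means is given beside them. That fit was chosen after seeing the data.

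The members and gene lists were chosen with earlier results of these data known. The text names all members, list genes past a threshold, Hdc, Kit, Srgn, Fcer1g, Il1rl1, Mcpt8 and Hpgds always, the 10 genes most like the members over the 8 samples, and the deleted gene; Retnlg, Ctsg and other list genes not past a threshold were chosen after their values were seen. A gene is represented by its brightest probe. Only 2 technical arrays per pair limit the precision. Replicate numbers 1 and 2 mark the dye orientation of the same RNA and not animals. Alternatives varied the thresholds, background correction, centring, filters, arrays and samples used.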

Additional observations from a re-analysis of the deposited data

Results flagged for a closer look

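Cma1 was marked because its ratio of PACAP over vehicle was above 0 on all 4 arrays at 30 min and below 0 on all 4 arrays at 60 min. The difference, 60 min minus 30 min, was -0.56 on the log2 scale (SE 0.28, limma adjusted p = 1, unadjusted p = 0.094), so it did not pass the test. At 30 min the WT arrays were at 0.07 and 0.01 and the KO arrays at 0.73 and 0.64, and the difference was -0.23 without the KO comparison at 30 min and -0.88 without the WT comparison at 30 min (limma adjusted p = 0.19).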

How the results depend on the processing

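Over the fold rule's alternatives (thresholds, p filter, background correction, centring, outliers, arrays), a mast cell gene was called in 1 case, Cma1 in KO at 30 min at 1.5-fold (1 gene). The share of all probes called at 1.5-fold is not given here, so this count cannot be set against a background. With normexp and loess the members' median ratio at 30 min was 0.13 (WT) and 0.40 (KO). Over all 10 genes whatever their signal it was 0.021, -0.049, 0.26 and -0.0087 (WT 30, WT 60, KO 30 and KO 60 min), and with either array left out it ran from 0.23 to 0.30, -0.15 to -0.12, 0.40 to 0.41 and -0.14 to -0.094 in that order.

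In limma's ratio fits, 0 member probes passed under any alternative. Over all probes the calls were 0 to 1 (PACAP effect), 0 to 170 (KO against WT) and 0 to 18 (60 against 30 min) with each comparison left out, 17 for KO against WT with time as a covariate and 2 for 60 against 30 min with the slide as a block. With the arrays as data and the comparison as replicate block, the PACAP effect gave 0 calls over all probes and over members. Replicate numbers mark dye orientations of the same RNA and pair no animals.

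For levels in KO against WT (main 800), calls over all probes were 2601 with no pair block, 2516 on Feature Extraction signals, 2303 with no filter, 371 for probes above background in all samples, 0 and 190 in dye orientations 1 and 2, 0 in vehicle samples alone with or without a time term, 0 in PACAP samples alone with a time term, 0 on pair means, and 0 to 2768 with each pair left out. Of the member probes 2 passed with no pair block (Cpa3 and Tpsab1), 1 on Feature Extraction signals and 1 with no filter (Tpsab1 in both), and 0 to 1 with each pair left out (Mrgprb2 without KO at 30 min). For 60 against 30 min (main 2718) the calls were 4904 with no pair block, 4229 with no filter, 1174 above background in all samples, 1 and 6041 in dye orientations 1 and 2, 0 in vehicle samples with the slide as a block, 3116 within the WT slide and 292 within the KO slide, 0 on pair means, and 0 to 10701 (0 to 2 member probes, Cma1 and Mrgprb2 without KO at 30 min) with each pair left out. After PACAP against vehicle they were 338 (1 member, Tpsb2) and 187 in dye orientations 1 and 2, where PACAP and dye cannot be told apart since all PACAP samples of an orientation carry the same dye.

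Signs turned for some member values. No member value had passed a main fit, so this says nothing of how stable a passing value would be. The PACAP effect was 0.0074 for Fcer1a and 0.025 for Mrgprb2 with normexp and loess. For levels at 60 against 30 min, Tpsab1 was at -0.022 in dye orientation 2 and Mrgprb2 at -0.065 in dye orientation 1 and -0.16 within the KO slide. For levels after PACAP, the second Tpsb2 probe was at -0.021 in dye orientation 2, Fcer1a at -0.0032 with quantile normalization, -0.011 on Feature Extraction signals and -0.13 in dye orientation 1, and Mrgprb2 at -0.024 on Feature Extraction signals. With each comparison left out, the PACAP effect ran from -0.11 to 0.19 for Cma1, -0.063 to 0.11 for Tpsab1, -0.24 to 0.11 for Fcer1a and -0.22 to 0.078 for Mrgprb2. Its KO minus WT difference ran from -0.16 to 0.74 for Cma1, -0.27 to 0.15 for Mcpt4, -0.24 to 0.15 for Cpa3, -0.19 to 0.47 for the second Tpsb2 probe, -0.49 to 0.018 for Tpsab1 and -0.049 to 0.89 for Fcer1a, and its 60 minus 30 min difference from -0.20 to 0.012 for the brighter Tpsb2 probe. With each pair left out, the level difference of 60 from 30 min ran from -0.16 to 0.24 for Mrgprb2, and that of PACAP from vehicle from -0.083 to 0.19 for Cma1, -0.12 to 0.081 for Fcer1a and -0.12 to 0.10 for Mrgprb2. The cause of these shifts was not tested.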

Other observations

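Genes downstream of mast cell release and of the machinery of release were read by lists. None of 8 exocytosis genes, 5 genes of histamine receptors and stem cell factor or 8 genes induced in activated mast cells was called in any of the 4 comparisons. The rule called 0.292% to 0.708% of all probes in a comparison. Tnf, a cytokine that mast cells and many other cells make, had mean log2 ratios of 1.07 at 30 min and -0.12 at 60 min in WT, and of 0.57 and 0.11 in KO. The level of Tnf differed by time, with 6.44 to 6.71 in the 4 samples at 30 min and 7.41 to 7.56 in the 4 samples at 60 min (60 over 30 min 0.91, SE 0.07, limma adjusted p = 0.013, and 0.21 with the pair means).

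By the same fit of time, which passed 10.3% of all probes, Hrh4, a histamine receptor of leukocytes, was higher at 60 min (0.41, SE 0.06, limma adjusted p = 0.023), Kitl, the stem cell factor gene, was lower (-0.41, SE 0.08, limma adjusted p = 0.037), and the syntaxin gene Stx3 was higher (0.30, SE 0.06, limma adjusted p = 0.037). With the pair means their adjusted p was 0.21, 0.22 and 0.25. Of 9 other Mrgpr receptors on the array 4 entered the ratio fits and 0 were called in any comparison. In KO at 30 min Mrgprb1 was at 0.57, Mrgprb3 at 0.40, Mrgprb4 at -0.12 and Mrgprx2 at -0.14, and the highest value of the 4 was that of Mrgprx2 in WT at 60 min (1.03), which was not called. These are Feature Extraction ratios. Over the 4 genes the median PACAP effect across comparisons was 0.12 on these ratios and 0.024 on levels by normexp and loess.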
